A study of Mus musculus with 8 samples.

Results

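Transcripts of T cells, natural killer (NK) cells and innate lymphoid cells were read in RNA from the small-intestinal wall of wild-type mice before and after birth. The 9 genes Cd3d, Cd3e, Cd3g, Gzma, Gzmb, Nkg7, Il7r, Il2rb and Gata3 were taken by symbol from a table of 46635 loci, and each symbol matched 1 locus. The tissue was the intestine left after EDTA had stripped the epithelium, so it holds muscle, nerves, vessels, connective tissue and resident immune cells; it was not sorted for any cell type. 4 libraries came from fetuses of embryonic stage E17.5 (the age label gives E17) and 4 from pups at postnatal day 14 (P14). All 8 came from wild-type mice with no transgene or treatment named. The labels do not say whether a library is 1 animal or a pool, so each p-value measures the spread between these libraries, which may be technical.

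T cells recognise antigen through a receptor whose signal is carried by the CD3 chains. NK cells and cytotoxic T cells kill by releasing granules that hold granzymes, proteases that enter the target cell. Innate lymphoid cells carry no antigen receptor, develop in response to IL-7 and are seeded into the gut wall before birth, where they take part in forming lymphoid tissue. After birth, naive T and B cells fill the Peyer's patches and the lamina propria as the gut meets food and bacteria. Several of these genes are shared between lineages, so no single one identifies a cell type.

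Levels are in FPKM, reads scaled to gene length and to a library size. That size, as implied by the values, need not equal the reads assigned to genes. Fold changes and adjusted p-values are from limma on log2(FPKM + 1), with Benjamini-Hochberg adjustment over all genes of the fit and calls made under 0.05. Only Gzma, Nkg7, Il7r and Il2rb reached 1 FPKM in at least 4 of the 8 libraries and were among the 14044 genes tested with that filter; Gzma reached it only at E17.5. The other 5 genes are reported from the unfiltered fit, that of all 31574 genes above 0 FPKM in at least 1 library. A gene list is given in both fits, since a gene can pass the filter through the age where it is high. Counts of called list genes stand against 9.72% higher and 15.0% lower among all filtered genes. In the unfiltered fit these shares were 3.19% and 4.98%, and without P14 replicate 2 they were 3.3% and 3.87%. A bulk level cannot separate the number of cells from the RNA in each: fewer cells of a type and less RNA per cell cannot be told apart.

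Both P14 replicate 1 and P14 replicate 2 stood apart from the other P14 libraries. P14 replicate 2 had the lowest level among the P14 libraries for all 15 of 15 pan-leukocyte genes, whose summed level was 82.1 FPKM against 207 to 329 in the other P14 libraries and 198 to 248 at E17.5. Ptprc, which encodes CD45 on all white blood cells, lay between 9.35 and 15.9 FPKM in the fetal libraries; in P14 replicates 1 to 4 it was 14, 2.18, 10.5 and 14.2 FPKM. P14 replicate 1 had the most epithelial RNA: Epcam, an epithelial surface protein, was at 1228 FPKM there, at 8.46, 118 and 33.5 FPKM in P14 replicates 2 to 4, and at 0.683 to 1.73 FPKM at E17.5. Summed smooth muscle genes were highest in P14 replicate 2, at 11284 FPKM, and lowest in P14 replicate 1, at 2936 FPKM, against 4996 to 5477 FPKM at E17.5. The libraries held between 16660998 and 19496632 reads assigned to genes.

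Granzyme A and granzyme B transcripts were lower at P14 than in the fetal gut wall; Gzma was the abundant one of the pair at E17.5, and Gzmb was near or under 1 FPKM. Of the 9 genes, Gzma and Gzmb were called lower at P14, none was called higher and 7 were not called, against backgrounds of 15.0% lower and 9.72% higher among the filtered genes and 4.98% lower and 3.19% higher among all genes above 0 FPKM. In the plot of each gene by library, the ages lie apart without overlap for Gzma and Gzmb, with P14 below, and for Cd3d, with P14 above by a narrow margin. Among all genes above 0 FPKM, 10.7% had non-overlapping ages with P14 below and 10.6% with P14 above; among the filtered genes these shares were 20.4% and 15.6%.

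**Figure D1:**
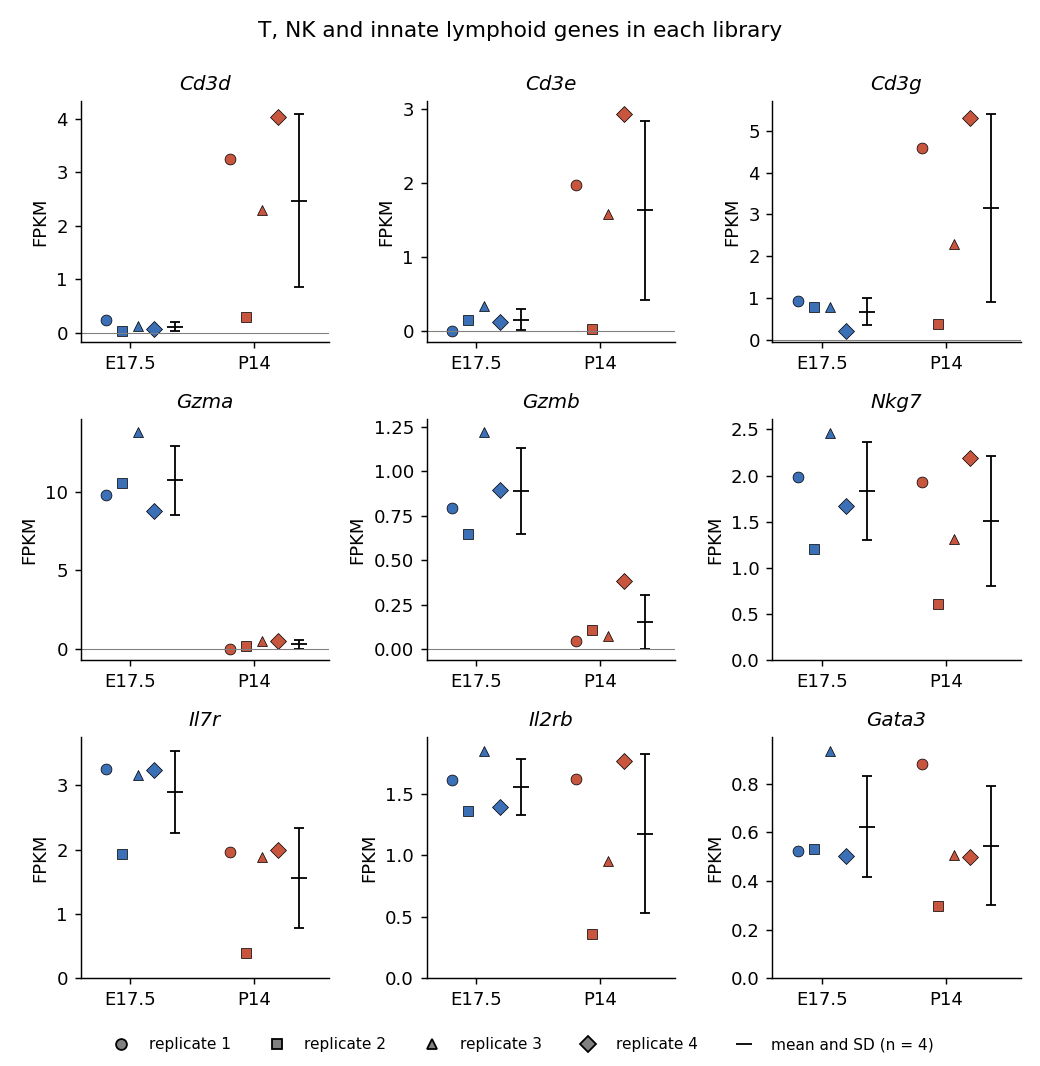
FPKM (vertical axes, a separate scale for each gene) of the 9 genes in the 4 E17.5 (blue) and 4 P14 (red) libraries, with the mean and SD (n = 4) beside each group and a marker shape for each replicate number. Gzma sits between 8.78 and 13.8 FPKM at E17.5 and between 0 and 0.545 FPKM at P14, while the CD3 genes are high in P14 replicates 1, 3 and 4 and low in P14 replicate 2.

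Gzma (gene 14938; GRCm39 chromosome 13, 113230358 to 113237515, minus strand) encodes granzyme A, a tryptase-like serine protease of killer cell granules. Its level was 9.76, 10.5, 13.8 and 8.78 FPKM in the E17.5 libraries (replicates 1 to 4), against 0, 0.187, 0.545 and 0.534 FPKM in P14 replicates 1 to 4. Behind these stood 710 reads in all at E17.5 and 21 reads in all at P14. Every E17.5 library was more than an order of magnitude above every P14 library. The mean fell from 10.7 ± 2.16 to 0.316 ± 0.269 FPKM (SD, n = 4 libraries each), a 33.8-fold difference of means and a log2 fold change of -3.16 (SE 0.192, adjusted p = 0.000263 by limma). Gzma passed the filter only through E17.5, and in the unfiltered fit its adjusted p was 0.000907 by limma. No read was counted in P14 replicate 1, where 3 reads, taken as an approximate upper limit for a count of 0, would be 0.243 FPKM. The E17.5 mean was 44.1-fold above that limit, which covers counting error in that library only. Gzma overlaps Cdc20b, a gene on the opposite strand that was at 0.0297 to 0.195 FPKM in the 8 libraries, and whether counting used strand is not known.

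Gzmb (gene 14939; chromosome 14, 56496293 to 56499791, minus strand) encodes granzyme B, which cleaves after aspartate and activates caspases. Its level was 0.793, 0.647, 1.22 and 0.897 FPKM at E17.5, against 0.0472, 0.109, 0.0706 and 0.380 FPKM at P14. The highest P14 library, replicate 4, was still below the lowest E17.5 library, replicate 2. The mean fell from 0.889 ± 0.243 to 0.152 ± 0.154 FPKM (SD, n = 4 libraries each), a 5.86-fold difference that rests on 102 fetal reads and 17 postnatal ones. On the log2(FPKM + 1) scale, which understates changes of low genes, the change was -0.71 (SE 0.134, adjusted p = 0.0193 by limma). This call was lost when E17.5 replicate 3, E17.5 replicate 4 or P14 replicate 3 was left out (adjusted p = 0.0555, 0.0609 and 0.0624 by limma).

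Of 16 other cytotoxic granule genes, 5 passed the filter, 1 was called lower and none higher, with a median log2 fold change of -0.07 against 0.00 over all tested genes. In the unfiltered fit, 12 were tested, 1 was called lower and 1 higher, with a median of 0.01 against 0.02 over all genes. The gene called lower was Ctsc, the protease that activates granzyme precursors and is also found in myeloid cells, with a change of -1.16 (SE 0.187, adjusted p = 0.00485 by limma). Prf1, the pore-forming perforin that accompanies granzymes, was at 0.0941 to 0.234 FPKM at E17.5, against 0 to 0.313 FPKM at P14, with no call. Srgn, the granule proteoglycan, was at 7.93 to 13.9 FPKM at E17.5, against 8.08 to 12.0 FPKM at P14. Gzmm, granzyme M, went the other way: it was at 0.179 to 0.508 FPKM at E17.5, against 0.775 to 1.53 FPKM at P14, with a change of 0.60 (SE 0.142, adjusted p = 0.0428 by limma in the fit of all genes above 0 FPKM), a call lost when any library other than P14 replicate 1 was left out. Gzmd, Gzme, Gzmf and Gzmg were listed at 0 in all 8 libraries.

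Genes of mast cells and macrophages were also called lower at P14. The backgrounds were 15.0% lower and 9.72% higher among the filtered genes, and 4.98% and 3.19% in the unfiltered fit. Of 11 mast cell genes, 6 were tested, 4 were called lower and 1, Kit, higher; Kit also marks the interstitial cells of Cajal, and its call was lost without any 1 library other than P14 replicate 1. Of the 11, 5 were called lower and none higher in the unfiltered fit. The mast cell sum was 32.1 to 47.1 FPKM at E17.5, against 21.7 to 58.6 FPKM at P14. Kit alone was at 13.6 to 17.8 FPKM at E17.5, against 17.46, 51.1, 44.7 and 51.8 FPKM in P14 replicates 1 to 4. Kit was thus most of the sum in every P14 library, and the sum does not show the level of the other mast cell genes there. The mast cell protease Mcpt4 was at 2.13 to 4.05 FPKM at E17.5, against 0 to 0.211 FPKM at P14. Of 12 macrophage genes, 10 were called lower and none higher in the filtered fit, and 9 and none in the unfiltered fit, and their sum was 447 to 496 FPKM at E17.5, against 177 to 327 FPKM at P14. Their part in the granzyme result was not tested.

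The proximal promoters of the 2 granzyme genes are shown because these genes were lower together. Each is the RefSeq window on GRCm38.p6 from 250 bases before the gene's start to 50 after it, written 5′ to 3′ on the gene's strand; 8 of the 9 genes had one, and Il2rb did not. Capitals mark matches to TGTGGT, the core bound by RUNX factors, TGANTCA, bound by AP-1, or TGACGT, the core bound by CREB and ATF factors, on both strands. All promoters were also searched for AGGAAG, the core bound by ETS factors, for AGATAA, bound by GATA factors, and for TATAAA. The last is one form of the core promoter element that the TATA-binding protein recognises. The motifs were chosen with these promoters in view. Gzma lies at chr13:113100932-113101231 and Gzmb at chr14:56262285-56262584, both on the minus strand.
Gzma: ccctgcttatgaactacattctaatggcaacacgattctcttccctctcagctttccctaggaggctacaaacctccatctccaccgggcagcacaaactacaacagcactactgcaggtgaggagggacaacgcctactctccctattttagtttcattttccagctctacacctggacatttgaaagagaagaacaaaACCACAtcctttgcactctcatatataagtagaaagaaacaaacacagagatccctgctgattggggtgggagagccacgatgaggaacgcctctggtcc
Gzmb: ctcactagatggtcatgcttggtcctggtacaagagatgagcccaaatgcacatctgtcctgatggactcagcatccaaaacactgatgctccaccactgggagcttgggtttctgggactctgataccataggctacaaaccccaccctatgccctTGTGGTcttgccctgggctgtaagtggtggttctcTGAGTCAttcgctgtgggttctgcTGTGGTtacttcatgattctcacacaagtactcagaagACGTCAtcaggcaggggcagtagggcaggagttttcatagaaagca
Gzma held 1 RUNX core, on the other strand, and Gzmb held 2 RUNX cores, 1 AP-1 match and 1 CREB and ATF core. Of 32851 promoters of this length, 16.8% held TGTGGT, 7.81% held TGANTCA and 7.51% held TGACGT. Nkg7 and Il7r also held 1 RUNX core each. A match is a description of letters and not of binding.

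The 3 CD3 genes, which encode the delta, epsilon and gamma signalling chains of the T cell receptor complex, were higher in 3 of the 4 P14 libraries than in any E17.5 library. None of the 3 was called with all libraries. All 3 were called without P14 replicate 2, the library low in white blood cell transcripts. They lie together on chromosome 9: Cd3g (gene 12502; 44880870 to 44891729, minus strand) and Cd3d (gene 12500; 44893067 to 44898350, plus strand) stand head to head with starts 1338 bases apart, and Cd3e (gene 12501; 44910033 to 44920961, minus strand) ends 11683 bases beyond the end of Cd3d.

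Cd3d was at 0.241, 0.0381, 0.140 and 0.0664 FPKM in the E17.5 libraries (replicates 1 to 4), against 3.25, 0.290, 2.29 and 4.04 FPKM in P14 replicates 1 to 4. The ages did not overlap, but P14 replicate 2 (8 reads) was barely above E17.5 replicate 1 (7 reads). Means were 0.121 ± 0.0907 and 2.47 ± 1.62 FPKM (SD, n = 4 libraries each), with a log2 fold change of 1.47 (SE 0.396, adjusted p = 0.0641 by limma). Without P14 replicate 2 the change was 1.89 (SE 0.167, adjusted p = 0.00453 by limma), and without P14 replicate 1 it was 1.31 (adjusted p = 0.0669).

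Cd3e was at 0, 0.152, 0.348 and 0.132 FPKM at E17.5, against 1.97, 0.0362, 1.58 and 2.93 FPKM at P14. P14 replicate 2, with 1 read, fell inside the E17.5 range, and the other P14 libraries, with 42 to 85 reads, lay above it. Means were 0.158 ± 0.143 and 1.63 ± 1.2 FPKM (SD, n = 4 libraries each), with a log2 fold change of 1.04 (SE 0.381, adjusted p = 0.146 by limma). Leaving out P14 replicate 2 gave 1.43 (SE 0.178, adjusted p = 0.0106 by limma).

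Cd3g was the CD3 gene most readily seen before birth, at 0.917, 0.788, 0.773 and 0.196 FPKM at E17.5 against 4.6, 0.375, 2.30 and 5.31 FPKM at P14. P14 replicate 2 again fell inside the E17.5 range. Means were 0.669 ± 0.321 and 3.15 ± 2.25 FPKM (SD, n = 4 libraries each), with a log2 fold change of 1.12 (SE 0.467, adjusted p = 0.196 by limma). Without P14 replicate 2 it was 1.57 (SE 0.276, adjusted p = 0.0254 by limma). Without P14 replicate 2, 3 of the 9 genes were called higher and 2 lower; the backgrounds were 3.3% higher and 3.87% lower among all genes above 0 FPKM and 8.37% and 12.9% among the filtered genes. Without P14 replicate 1, none was called higher and 2 lower, although the backgrounds rose to 11.3% higher and 10.7% lower among all genes above 0 FPKM and to 22.6% and 26.9% among the filtered genes.

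B cell transcripts were also higher at P14. The backgrounds of genes called higher were 9.72% with the filter, 3.19% in the unfiltered fit and 3.3% in that fit without P14 replicate 2. Of 14 B and plasma cell genes, 7 passed the filter, some of them only through P14, and 6 were called higher and none lower; in the unfiltered fit, 5 of the 14 were called higher and none lower, and 13 without P14 replicate 2. Their sum was 15.6 to 23.0 FPKM at E17.5, against 528, 275, 306 and 701 FPKM in P14 replicates 1 to 4, and 10 of the 14 genes were lowest in P14 replicate 2 among the P14 libraries. Cd79a, a chain of the B cell receptor, was at 42.7, 1.42, 27.0 and 45.2 FPKM there, the order of libraries seen in Cd3d. The antibody chain genes Igkc and Igha had another order, with 246, 162, 126 and 325 FPKM for Igkc and 52.4, 81.4, 35.5 and 123 FPKM for Igha, both higher in P14 replicate 2 than in replicate 3. The epithelial sum was 34.3 to 55.9 FPKM at E17.5, against 5272, 129, 718 and 252 FPKM in P14 replicates 1 to 4. The part of B cell and epithelial RNA in the CD3 result was not tested. The heat map of summed levels sets these groups side by side.

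**Figure D2:**
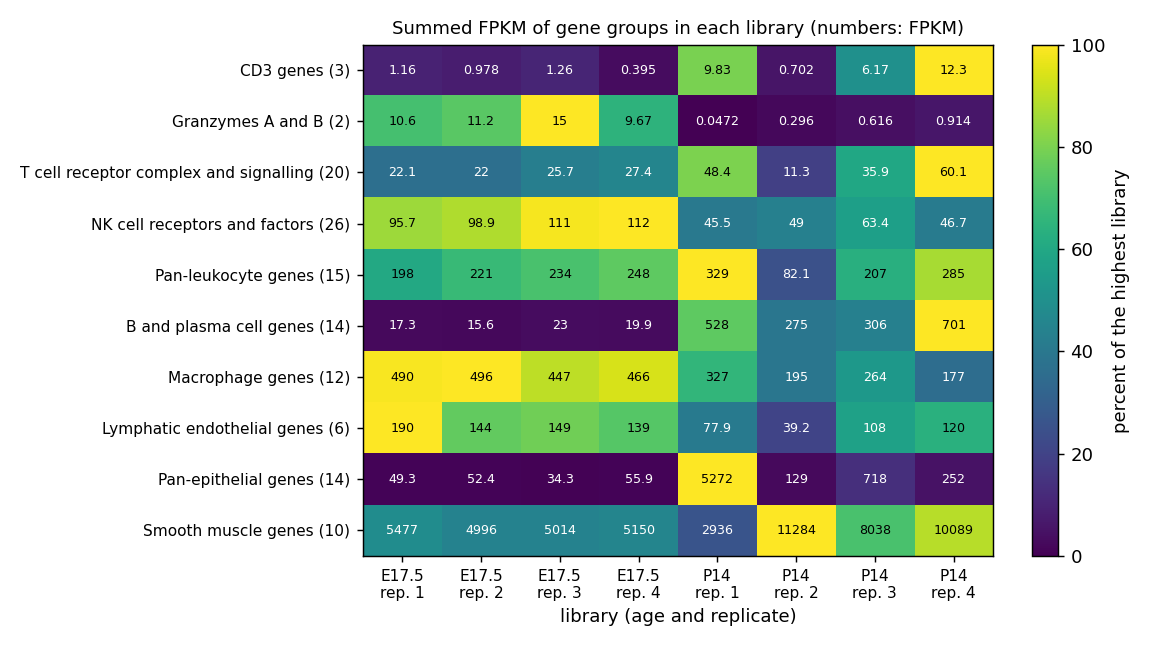
Summed FPKM of gene groups (rows, number of genes in parentheses) in each library (columns), coloured by percent of the highest library in the row, with the sum printed in each cell. The granzyme row is bright in the E17.5 columns, at 9.67 to 15.0 FPKM, and dark in the P14 columns, and the CD3, T cell receptor and pan-leukocyte rows are dark in P14 replicate 2.

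Promoters of the CD3 genes are shown for the same reason as those of the granzymes, since the 3 genes were high in the same P14 libraries. Capitals mark AGGAAG, the core bound by ETS factors, TGACGT, the CREB and ATF core, or AGATAA, bound by GATA factors, on either strand. The windows are chr9:44981536-44981835 for Cd3d (plus strand), chr9:45009562-45009861 for Cd3e (minus strand) and chr9:44980382-44980681 for Cd3g (minus strand), on GRCm38.p6.
Cd3d: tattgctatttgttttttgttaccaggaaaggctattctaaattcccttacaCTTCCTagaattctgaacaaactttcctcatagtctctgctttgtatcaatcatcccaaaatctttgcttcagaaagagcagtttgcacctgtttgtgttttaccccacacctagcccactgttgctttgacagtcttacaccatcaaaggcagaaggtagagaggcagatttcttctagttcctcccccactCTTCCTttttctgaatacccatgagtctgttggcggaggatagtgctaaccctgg
Cd3e: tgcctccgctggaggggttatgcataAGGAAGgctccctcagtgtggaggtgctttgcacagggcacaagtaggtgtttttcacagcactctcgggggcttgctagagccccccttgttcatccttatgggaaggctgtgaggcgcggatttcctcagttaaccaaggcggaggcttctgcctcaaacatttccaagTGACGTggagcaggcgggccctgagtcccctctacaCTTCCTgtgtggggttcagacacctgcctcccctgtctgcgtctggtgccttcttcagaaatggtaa
Cd3g: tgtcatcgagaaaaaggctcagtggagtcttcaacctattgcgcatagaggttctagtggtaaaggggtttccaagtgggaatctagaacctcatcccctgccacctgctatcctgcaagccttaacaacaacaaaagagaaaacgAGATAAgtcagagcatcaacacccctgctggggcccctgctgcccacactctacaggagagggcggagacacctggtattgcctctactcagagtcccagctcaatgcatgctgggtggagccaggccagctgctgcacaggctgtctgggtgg
Cd3d held 2 ETS cores, Cd3e held 2 ETS cores and 1 CREB and ATF core, and Cd3g held 1 GATA match. Nkg7 and Il7r, whose promoters are not printed, also held 1 ETS core each. AGGAAG was in 35.4% of the 32851 promoters and AGATAA in 11.2%. None of the 5 promoters printed held the exact letters TATAAA, which 13.6% of all promoters held. Variants of that element were not searched, and the Gzma promoter holds TATATAA before its start.

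Other genes of the T cell receptor pathway were also low in P14 replicate 2. All 20 of 20 listed genes were lowest there among the P14 libraries, as were 7 of the 9 genes, against 18.8% of all genes above 0 FPKM and 24.1% of the filtered genes. The size of the dip varied: Lcp2 and Fyb were at 1.88 and 2.22 FPKM in P14 replicate 2, against 2.78 to 3.68 and 4.11 to 4.79 FPKM in the other P14 libraries. The sum of the 20 was 22.0 to 27.4 FPKM at E17.5, against 48.4, 11.3, 35.9 and 60.1 FPKM in P14 replicates 1 to 4. With the filter, 6 were tested, none was called higher and 1 lower, with a median log2 fold change of 0.24 against 0.00 over all tested genes. In the unfiltered fit, 1 of the 20 was called higher and 1 lower, with a median of 0.50 against 0.02 over all genes. Without P14 replicate 2, the lowest P14 library for all 20, 10 of the 20 were called higher and 1 lower, with a median of 0.78. Cd2, an adhesion receptor of T cells, was at 0.138 to 0.604 FPKM at E17.5, against 8.04, 0.144, 3.82 and 6.62 FPKM at P14. Cd8b1, the beta chain of CD8, was at 0 to 0.102 FPKM at E17.5, against 2.79, 0.0370, 1.55 and 2.75 FPKM at P14. The gene called lower in both fits was Lcp2, the adaptor SLP-76, which myeloid cells and platelets also use, at 5.83 to 7.79 FPKM at E17.5, against 1.88 to 3.68 FPKM at P14 (log2 fold change -0.96, SE 0.182, adjusted p = 0.00877 by limma). The gene called higher was Skap1, an adaptor of T cell adhesion (0.80, SE 0.180, adjusted p = 0.0360 by limma), a call lost without any 1 of the E17.5 libraries, P14 replicate 3 or P14 replicate 4. Cd2, Cd8b1 and Skap1 were picked once their values were known.

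Constant regions of the T cell receptor genes were read at E17.5 as well as at P14, although CD3 levels were low at E17.5. Of 7 listed, 5 were tested, none was called higher and 1, Trgc1 of the gamma chain, lower, at 6.0 to 9.21 FPKM at E17.5, against 3.49 to 5.97 FPKM at P14 (log2 fold change -0.58, SE 0.177, adjusted p = 0.0458 by limma), a call lost without any 1 of the E17.5 libraries, P14 replicate 2 or P14 replicate 4. None of the 7 was called in the unfiltered fit, and with P14 replicate 2 left out 1 was called higher. Trbc2, a beta chain constant region with a near-identical copy in Trbc1, was at 5.01 to 8.42 FPKM at E17.5, against 20.6, 4.11, 14.9 and 27.0 FPKM at P14. Trbc2 was not called with all libraries (1.08, SE 0.489, adjusted p = 0.142 by limma) and was called without P14 replicate 2 (1.59, adjusted p = 0.00714 by limma). Reads could be split between the 2 copies.

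Nkg7 (gene 72310; chromosome 7, 43086562 to 43087670, plus strand) encodes a granule membrane protein of NK cells and cytotoxic T cells. It was at 1.99, 1.2, 2.46 and 1.67 FPKM at E17.5, against 1.93, 0.607, 1.31 and 2.19 FPKM at P14. The ages overlapped, with means of 1.83 ± 0.531 and 1.51 ± 0.704 FPKM (SD, n = 4 libraries each) and a log2 fold change of -0.20 (SE 0.240, adjusted p = 0.562 by limma). Whether this change differs from that of the granzymes was not tested.

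Most NK cell genes outside the 9 did not pass the filter. Of 26 listed receptors and factors, 5 passed the filter, 2 were called lower and none higher, with a median log2 fold change of -0.95 over the 5 tested against 0.00 over all tested genes. In the unfiltered fit, 24 were tested, the median was -0.06 against 0.02 over all genes, and 2 were called lower and none higher; without P14 replicate 2, 1 was called lower. The 2 called were the signalling adaptors Tyrobp (log2 fold change -1.13, SE 0.125, adjusted p = 0.00120 by limma) and Fcer1g (-0.98, SE 0.207, adjusted p = 0.0135 by limma), which macrophages and mast cells also express. Klrb1b, an NK receptor of the NKR-P1 family, was at 2.43 to 4.34 FPKM at E17.5, against 0.223 to 2.06 FPKM at P14 without a call (-0.95, SE 0.297, adjusted p = 0.0511 by limma). Ncr1, the NKp46 receptor, was at 0.0673 to 0.193 FPKM at E17.5, against 0 to 0.140 FPKM at P14. Eomes, a factor of mature NK cells, was at 0 to 0.0284 FPKM at E17.5, against 0 to 0.464 FPKM at P14. Klra4 and Klra9 were listed at 0 in all libraries. Klrb1b, Ncr1 and Eomes were picked once their values were known.

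The cytokine receptor genes Il7r and Il2rb and the transcription factor gene Gata3 were not called between the ages. Il7r (gene 16197; chromosome 15, 9505880 to 9530270, minus strand) encodes the IL-7 receptor alpha chain, needed by developing lymphocytes and innate lymphoid cells. It was at 3.25, 1.94, 3.17 and 3.24 FPKM at E17.5, against 1.97, 0.394, 1.89 and 2.0 FPKM at P14. The E17.5 libraries other than replicate 2 lay above all P14 libraries. Means were 2.90 ± 0.642 and 1.56 ± 0.781 FPKM (SD, n = 4 libraries each), from 951 and 468 reads, with a log2 fold change of -0.65 (SE 0.273, adjusted p = 0.116 by limma). Without P14 replicate 2 it was -0.38 (adjusted p = 0.132 by limma).

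Il2rb (gene 16185; chromosome 15, 78363456 to 78396569, minus strand) encodes the beta chain shared by the IL-2 and IL-15 receptors, on which NK cells depend. It was at 1.61, 1.36, 1.85 and 1.40 FPKM at E17.5, against 1.62, 0.363, 0.955 and 1.77 FPKM at P14. The ages overlapped, and the change was -0.28 on the log2 scale (SE 0.225, adjusted p = 0.388 by limma). Without P14 replicate 2 it was -0.07 (adjusted p = 0.754 by limma).

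Gata3 (gene 14462; chromosome 2, 9861889 to 9892762, minus strand) encodes a factor of T helper 2 cells, thymocytes and type 2 innate lymphoid cells. It was at 0.523, 0.533, 0.936 and 0.504 FPKM at E17.5, against 0.880, 0.296, 0.508 and 0.497 FPKM at P14, the narrowest span of the 9 genes. The change was -0.08 on the log2 scale (SE 0.145, adjusted p = 0.746 by limma). Gata3 overlaps 4930412O13Rik and 9230102O04Rik, which were at 0 to 0.0543 FPKM and at 0 FPKM.

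**Figure D3:**
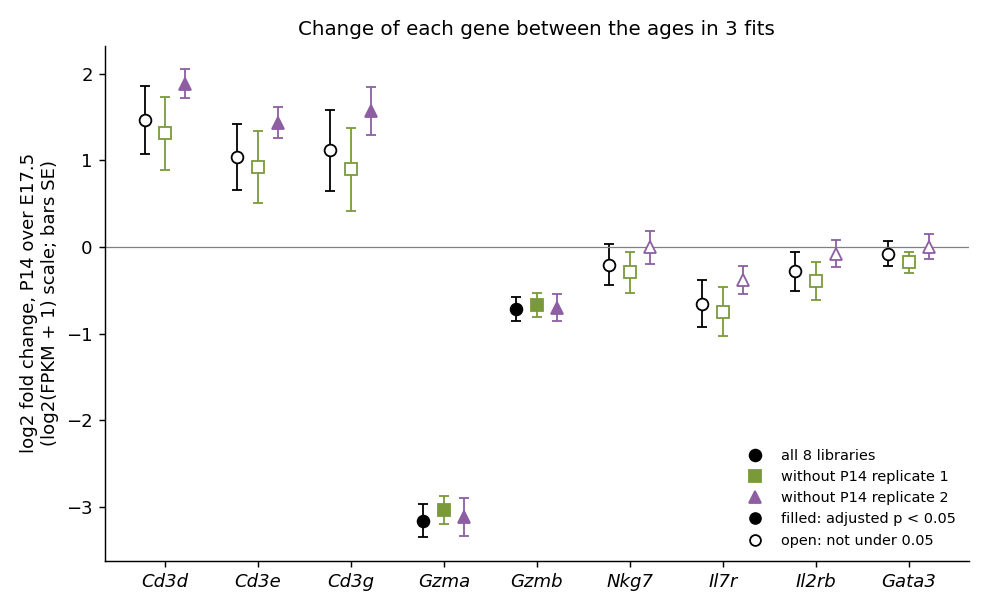
Log2 fold change of P14 over E17.5 on the log2(FPKM + 1) scale (vertical axis, bars SE) for the 9 genes in 3 fits: all 8 libraries (circles), without P14 replicate 1 (squares) and without P14 replicate 2 (triangles), filled where the adjusted p was under 0.05. Gzma and Gzmb are filled in all 3 fits, Cd3d, Cd3e and Cd3g only in the fit without P14 replicate 2, and the other 4 genes in none.

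Of the genes that act with these receptors and factors, some were called higher and some lower, as among all genes. The backgrounds for this list and the innate lymphoid list below were 9.72% higher and 15.0% lower among the filtered genes. In the unfiltered fit they were 3.19% and 4.98%, and without P14 replicate 2 they were 3.3% and 3.87%. Of 22 genes of the common gamma chain and the IL-7, IL-2 and IL-15 pathway, 14 were tested, 1 was called higher and 3 lower, with a median log2 fold change of -0.03. In the unfiltered fit, none of the 22 was called higher and 3 lower, with a median of 0.04, and without P14 replicate 2 there were 2 higher and 1 lower. Tslp, a cytokine that uses the IL-7 receptor alpha chain, was at 1.52 to 1.99 FPKM at E17.5, against 0.392 to 0.721 FPKM at P14 (-0.83, SE 0.110, adjusted p = 0.00236 by limma in the filtered fit). Tslp passed the filter only through the E17.5 libraries. Bcl2, the survival factor that IL-7 induces in lymphocytes, was at 6.73 to 7.5 FPKM at E17.5, against 3.21 to 5.03 FPKM at P14 (-0.64, SE 0.135, adjusted p = 0.0130 by limma). The gene called higher was Il4ra, the IL-4 receptor alpha chain, at 14.5 to 17.7 FPKM at E17.5, against 22.7 to 53.1 FPKM at P14 (0.83, SE 0.258, adjusted p = 0.0497 by limma); the call was lost without any 1 of the E17.5 libraries, P14 replicate 3 or P14 replicate 4.

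Of 28 innate lymphoid cell genes, 17 were tested, 1 was called higher and 3 lower, with a median of 0.12 against 0.00 over all tested genes. In the unfiltered fit, 27 were tested, none was called higher and 3 lower, with a median of 0.10, and without P14 replicate 2 there were 3 higher and 3 lower. Nfil3, a factor needed for innate lymphoid progenitors and expressed in many tissues, was at 7.53 to 8.16 FPKM at E17.5, against 2.75 to 3.86 FPKM at P14 (log2 fold change -1.04, SE 0.108, adjusted p = 0.000972 by limma). Arg1, an enzyme of type 2 innate lymphoid cells and macrophages, was at 2.77 to 4.38 FPKM at E17.5, against 0.743 to 1.80 FPKM at P14 (-0.90, SE 0.202, adjusted p = 0.0167 by limma), a call lost without E17.5 replicate 4. Zbtb16, the factor PLZF, was at 1.07 to 1.41 FPKM at E17.5, against 2.18 to 7.51 FPKM at P14 (1.01, SE 0.282, adjusted p = 0.0351 by limma), a call lost without any 1 of the E17.5 libraries or P14 replicate 4. Il17a was listed at 0 in all libraries.

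T cell transcription factors numbered 15, of which 9 were tested, 3 were called lower and none higher, with a median of -0.16. Over all 15 in the unfiltered fit the median had the other sign, 0.19, with 10 positive and 5 negative changes, and 3 were called lower and none higher; there were 2 higher and 3 lower without P14 replicate 1 and 4 higher and 3 lower without P14 replicate 2. The 3 called lower were Runx1, Ets1 and Tcf12, which many cells of the gut wall express, with log2 fold changes of -1.08 (SE 0.174, adjusted p = 0.00480 by limma), -1.03 (SE 0.139, adjusted p = 0.00242 by limma) and -0.52 (SE 0.0917, adjusted p = 0.00631 by limma). Of 13 genes of gut homing and intraepithelial lymphocytes, 4 were tested, 3 were called lower and none higher, with a median of -0.70. Over all 13 in the unfiltered fit the median was -0.02, with 6 positive and 7 negative changes, and 1 was called lower and none higher; without P14 replicate 2 there were 3 higher and 1 lower. Cd7, a surface protein of early T, NK and innate lymphoid cells, had the largest change of the 3 called: it was at 6.46 to 8.65 FPKM at E17.5, against 3.15, 0.105, 1.54 and 3.66 FPKM at P14 (-1.66, SE 0.422, adjusted p = 0.0256 by limma). Its call, and those of the integrin gene Itga4 and the sphingosine phosphate receptor gene S1pr1, were each lost without any 1 of the E17.5 libraries or P14 replicate 3. In the 8 lymphoid lists together, 65 of 147 genes were tested, 2 were called higher and 17 lower, against backgrounds of 9.72% and 15.0% of all filtered genes. In the unfiltered fit, 2 were called higher and 14 lower, against 3.19% and 4.98% of all genes above 0 FPKM. Without P14 replicate 2, the filtered fit gave 11 higher and 16 lower, against 8.37% and 12.9% of the filtered genes. Without P14 replicate 1, the filtered fit gave 5 higher and 23 lower, against 22.6% and 26.9%. The unfiltered fit without P14 replicate 2 differed by list. It gave 10 higher and 1 lower in the T cell receptor list, and none higher and 1 lower in the NK list. The backgrounds there were 3.3% and 3.87%. Tyrobp, Fcer1g, Runx1 and Ets1 are among those called lower and are not particular to lymphocytes.

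Dividing each level by that of Ptprc in the same library gave a measure that is less tied to the total of white blood cell transcripts. Per 100 FPKM of Ptprc, Gzma was at 104, 97.5, 103 and 55.3 in the E17.5 libraries (replicates 1 to 4), against 0, 8.58, 5.19 and 3.77 in P14 replicates 1 to 4. Gzmb was at 5.65 to 9.16 at E17.5, against 0.337 to 5.0 at P14, so P14 replicate 2 came close to the lowest E17.5 library. Cd3d was at 0.353 to 2.58 at E17.5, against 13.3 to 28.5 at P14, and Cd3g at 1.24 to 9.81 and 17.2 to 37.5. By this measure, Cd3d and Cd3g did not overlap with P14 above, Gzma and Gzmb did not overlap with P14 below, and the other 5 genes overlapped. The backgrounds were 7.03% with P14 above and 0.649% with P14 below over all genes above 0 FPKM, and 7.01% and 0.513% over the filtered genes. Without the division, 10.7% of all genes above 0 FPKM had P14 below. The median pan-leukocyte gene in P14 replicate 2 stood at 0.287 of the mean of the other P14 libraries. Ptprc fell further there, so dividing by it raises the values of that library. The results by this measure thus depend on the choice of Ptprc, and no other divisor was used.

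Cd3e was at 0 to 2.61 per 100 FPKM of Ptprc at E17.5, against 14.1, 1.66, 15.1 and 20.7 at P14, and its 1 read in P14 replicate 2 kept that library inside the E17.5 range. P14 replicate 2 had the highest Nkg7, 27.9 against 10.5 to 21.3 in all other libraries, and the highest Gata3, 13.6 against 3.18 to 7.02. Il7r was at 17.9 to 34.8 at E17.5, against 14 to 18.1 at P14, and Il2rb at 8.81 to 17.2 and 9.09 to 16.7. The summed granzymes A and B exceeded the summed CD3 genes by 9.11, 11.4, 11.9 and 24.5 times in E17.5 replicates 1 to 4, whereas at P14 they were 0.00480, 0.421, 0.0998 and 0.0744 of the CD3 sum.

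**Figure D4:**
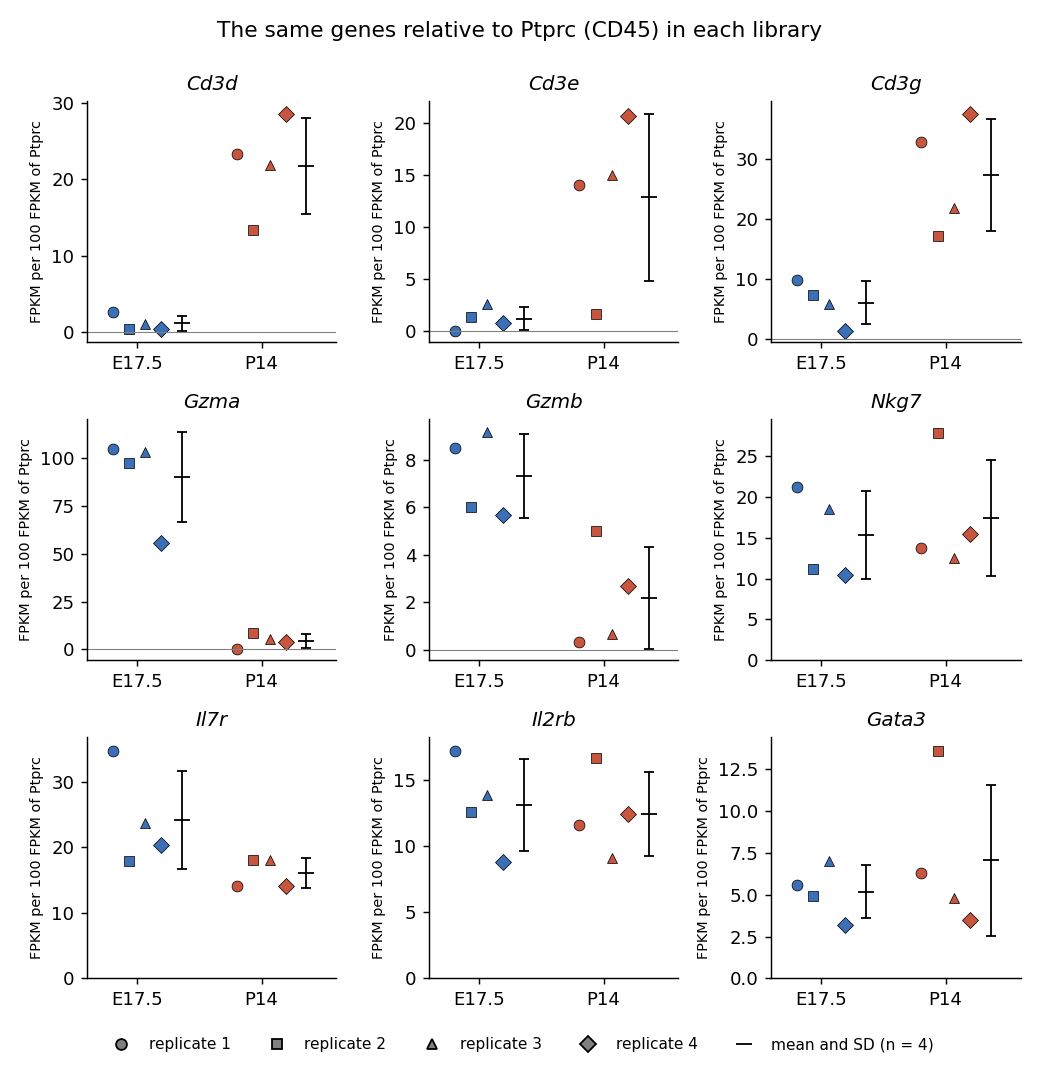
FPKM of each of the 9 genes per 100 FPKM of Ptprc (vertical axes, a separate scale for each gene) in the 4 E17.5 (blue) and 4 P14 (red) libraries, with the mean and SD (n = 4) beside each group. Gzma lies between 55.3 and 104 at E17.5 and between 0 and 8.58 at P14, and Cd3d and Cd3g are higher in every P14 library than in any E17.5 library.

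P14 replicate 1, the library richest in epithelial RNA, was also read against the mean of the other P14 libraries, as a description of 1 library with no test. Its ratio was 1.47 for Cd3d, 1.30 for Cd3e and 1.73 for Cd3g, and 1.38 for Il7r, 1.58 for Il2rb, 1.41 for Nkg7 and 2.03 for Gata3. The granzymes went the other way, with a ratio of 0.253 for Gzmb, from 1 read, and no read of Gzma. The other P14 libraries include replicate 2, in which 7 of the 9 genes were at their lowest. Without it, P14 replicate 1 lay between replicates 3 and 4 for Cd3d, Cd3e, Cd3g, Nkg7, Il7r and Il2rb. Both the ratios and this order depend in part on the smaller library size behind the FPKM of P14 replicate 1. In reads, Cd3e was at 42 in P14 replicate 1 and 45 in replicate 3, and Il7r at 119 and 153. For Cd3d, Cd3g, Nkg7 and Il2rb the reads of P14 replicate 1 stayed above those of replicate 3. P14 replicate 2 stood at 0.0908, 0.0167 and 0.0922 of the mean of the other P14 libraries for Cd3d, Cd3e and Cd3g, at 0.202 for Il7r and 0.251 for Il2rb, at 0.336 for Nkg7 and 0.471 for Gata3, and at 0.519 and 0.656 for Gzma and Gzmb. The ratios of the granzymes, the nearest to 1, rest on 3 reads of each gene in P14 replicate 2.

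The genes with the pattern most like each tested gene were found by Pearson's r of log2(FPKM + 1) over the 8 libraries among 12484 tested protein-coding genes, as a description only, since the points share 2 ages and their libraries' makeup. Gzma was most like Setd5 (r = 0.999), Peak1 (0.997) and Gpc6 (0.995), genes with one level before birth and a lower one after it and little spread within an age. Setd5, which encodes a chromatin protein, was at 13.9 to 14.6 FPKM at E17.5, against 9.84 to 10.5 FPKM at P14, a far smaller change than that of Gzma. Il7r was most like Tnfsf11 (0.973), the cytokine RANKL, Gpr183 (0.972), an oxysterol receptor that guides lymphoid cells, and Laptm5 (0.952), a lysosomal protein of white blood cells. Tnfsf11 was at 1.03 to 1.56 FPKM at E17.5, against 1.05, 0.147, 0.931 and 0.865 FPKM at P14. Il2rb was most like Nfatc1 (0.966), Bin2 (0.944) and Rassf5 (0.938), and Nkg7 was most like Il2rg (0.911), the common gamma chain, Nfatc1 (0.898) and Cd300lf (0.890).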

How the data were processed

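RNA was sequenced from 4 E17.5 and 4 P14 libraries. The deposited table gives 1 FPKM per gene and library. Per the submitters' processing notes, CASAVA, fastp, HISAT2, featureCounts, DESeq2 1.20.0 and GRCm39 were used, with no role given; which step made the FPKM and whether strand was used are not given in the sources used here. FPKM times gene length gave whole reads for 100% of values (tolerance 1e-06), used only for read numbers and as an alternative. Coordinates are the table's own.

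The ages were compared on log2(FPKM + 1) by limma 3.58.1 under R 4.3.3 with statmod 1.5.0, using an intensity trend and robust moderation, two-sided, tested on simulated data. The simulated libraries shared their gene makeup apart from the changed genes, and the same dispersion. They do not cover libraries that stand apart, as P14 replicates 1 and 2 did. The approximate upper limit taken for a count of 0 (3 reads) was a set value and covers counting error only. Of 282 list symbols, 281 matched by name and 1 by synonym (Fyb1). The members and lists were chosen with earlier results of these data known. Named were all 9 genes, Ptprc and Epcam, the 3 most alike genes, and genes from among the 3 largest called changes with non-overlapping ages and the highest level of each list; others are given as counts or marked as picked once their values were known, as were Kit, Prf1, Gzmm, Cdc20b and the 2 transcripts overlapping Gata3. Alternatives were another pseudocount, no filter, a looser filter, TPM, voom on recovered reads, a replicate block and leaving out each library.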

Additional observations from a re-analysis of the deposited data

Results flagged for a closer look

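Of 20 groups of 4 libraries checked, 3 held a library whose gap to its nearest neighbour, relative to the group's range, passed Dixon's critical value; chance gives about 1 in 20. Il7r in E17.5 replicate 2 was at 1.94 FPKM, with the other E17.5 libraries at 3.17 to 3.25 FPKM. Il7r in P14 replicate 2 was at 0.394 FPKM, with the other P14 libraries at 1.89 to 2.0 FPKM. Gata3 in E17.5 replicate 3 was at 0.936 FPKM, with the other E17.5 libraries at 0.504 to 0.533 FPKM.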

How the results depend on the processing

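Gzma kept its call in all 14 alternatives (adjusted p between 8.05e-06 and 0.0108 by limma), and Nkg7, Il7r and Il2rb kept their direction and stayed without a call in all 14. Leaving out 1 library gave log2 fold changes of 1.23 to 1.89 for Cd3d, 0.79 to 1.43 for Cd3e, 0.84 to 1.57 for Cd3g, -0.80 to -0.63 for Gzmb and -0.17 to 0.01 for Gata3. Gata3 turned to 0.011 without E17.5 replicate 3 and to 0.0041 without P14 replicate 2, with no call. Cd3d was also called with a pseudocount of 0.1 (3.19, adjusted p = 0.0345 by limma) and with the filter of 1 FPKM in at least 3 libraries (1.47, adjusted p = 0.0315), an alternative chosen after seeing the data, as was voom; this made the count of members called higher 1 in each. Leaving out 1 library gave 0 to 3 members called higher and 1 to 2 called lower.

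With the replicate number as a block, Gzmb was at -0.71 without a call (adjusted p = 0.0962 by limma), so that 1 member was called lower. Same-numbered libraries did not deviate together (r = -0.033, 0.0095, -0.0641 and -0.0492 for numbers 1 to 4). The P14 deviations hold large differences in makeup, so these values cannot exclude that the numbers pair the libraries. Of all genes, 3473 were called, 1744 with the block and 1735 to 6958 with 1 library left out. The pathway-list genes called higher, 2 in the main comparison, were 1 as TPM, 0 with the block, 1 with voom, 5 with the filter of 3 libraries and 0 to 11 with 1 library left out. Those called lower, 17 in the main comparison, were 21 as TPM, 13 with the block and 17 with voom. With 1 library left out they were 12 to 23.

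On the TPM scale the median over tested genes was -0.18, against 0.00, and the share of calls that were higher was 25.1%, against 39.3%; voom gave -0.10 and 29.7%. No member changed sign under either. The 2 planned count-model alternatives were not run, since the deposited values are FPKM. CD3 levels rest on 0 to 117 reads per library.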
